A study of Homo sapiens with 4 samples.

Results

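The step from 4 h to 8 h of 17β-estradiol (E2) treatment was examined in Ishikawa cells, an endometrial adenocarcinoma line that carries estrogen receptor α (ER). Cells called to the 4 h or the 8 h culture were kept with 8500 to 35000 unique molecular identifiers (UMIs, each standing for 1 transcript molecule caught in a droplet), 2700 to 6000 genes and under 7% mitochondrial UMIs. This left 892 cells at 4 h and 1465 cells at 8 h, so 2357 of the 4613 kept Ishikawa cells and of the 9239 kept cells of the whole series, which also holds the breast carcinoma line T-47D. The UMIs of each time point were summed and scaled to a common total (CPM, the UMIs of a gene per 1000000 UMIs), and the 7984 of 33538 genes whose 4 h and 8 h levels averaged 10 CPM or more were compared.

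All Ishikawa cultures were grown in hormone-depleted medium before treatment, then received 10 nM E2 for 2, 4 or 8 h or a DMSO vehicle as 0 h. The vehicle culture is not used here, and the 2 h culture is given only as context. Each time point was 1 culture, marked with a lipid-anchored DNA tag (MULTI-seq), and the 4 tagged cultures were mixed into 1 droplet library. Cells from the same culture are not replicates, so a difference between 4 h and 8 h cannot be told apart from a difference between these 2 cultures, and no p-value is given. Intervals cover counting error only.

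E2 is the main estrogen. It enters the cell and binds ER, which then binds DNA at estrogen response elements or through other factors, recruits coregulators and raises or lowers transcription of nearby genes. Direct targets respond within the first hours, while targets of the induced factors and genes with stable transcripts follow later. In the endometrium estrogens drive proliferation of the glandular epithelium and induce the progesterone receptor.

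The tags that assign cells to the 2 time points are shown because the whole comparison rests on them. They are printed in capitals because they differ at 8 of their 8 bases.

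4 h tag in Ishikawa: CATGCCTA
8 h tag in Ishikawa: AGGAGTCC

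In T-47D the same tags marked other cultures, the first the 2 h culture and the second the 0 h culture, so a tag was not tied to a time of treatment across lines. Between the 2 matrices 80 barcodes were shared, and 3 of the 2357 cells kept here carried a barcode that was also kept in T-47D.

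The 4 h cells gave 19362627 UMIs and the 8 h cells 30994433. Their median depth was 21435.5 and 20860 UMIs per cell, and their median mitochondrial share was 3.98% and 3.96%. Markers were read as a check on the label. Of 13 markers of endometrial and Muellerian epithelium, 11 were at 10 CPM or more at both times, among them HOXA10 at 59.7 and 55.3 CPM, EMX2 at 106 and 107 CPM and SOX17 at 55.4 and 56.5 CPM. Of 12 luminal breast markers 3 reached that level and 5 were at 0 UMIs at both times, including GATA3, PIP and TFF1, whereas 10 reached it in T-47D. The markers of endothelium (6), leukocytes (9) and erythroid cells (4) summed to at most 3.76 CPM per list, and of 8 stromal markers COL1A1 alone reached 10 CPM. ESR1, which encodes ER, stood at 35.5 CPM at 4 h and 37.0 CPM at 8 h, with a ratio of 1.04 whose counting interval of 0.95 to 1.15 includes 1.

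Most genes moved little between 4 h and 8 h. The median log2 ratio was 0.02, and 98.7% of genes lay within 1.3-fold (0.38 on the log2((CPM + 1)/(CPM + 1)) scale, on which low genes seem to change less than they did). Past this fold, 56 genes were higher at 8 h (0.701% of those compared) and 46 were lower (0.576%). At 1.5-fold the counts were 12 (0.15%) and 8 (0.1%), and 1 gene in each direction was past 2-fold on this scale, SCGB2A1 upward and CRYAB downward. The counting interval of the ratio excluded 1 for 2150 of all genes compared. The 102 called genes were chosen by the same ratios, so their own intervals describe the counting error and test nothing. The median level was 19.02 CPM for the higher and 27.1 CPM for the lower genes, against 33.3 CPM for all genes. Under 50 CPM were 45 of the 56 higher and 29 of the 46 lower genes. Most genes compared were also under it, as 2828 of 7984 were at 50 CPM or more. The lower genes were thus under 50 CPM about as often as all genes, and the higher genes more often. The genes next to the limit were close on either side, at 0.384 and 0.378 among the higher genes and −0.382 and −0.378 among the lower.

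**Figure D1:**
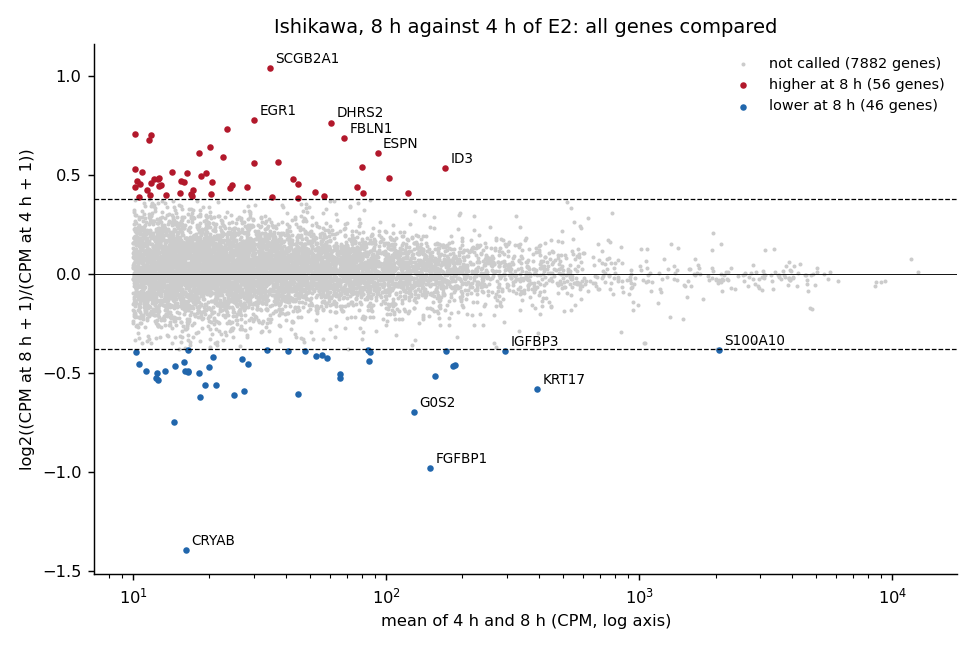
Each point is a gene, with its mean level over 4 h and 8 h in CPM (log axis) against its log2 ratio of 8 h to 4 h. Dashed lines mark 1.3-fold, with 56 genes above the upper line (red) and 46 below the lower line (blue) among 7984.

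The 12 highest genes had log2 ratios from 0.59 to 1.04. SCGB2A1, a small secretoglobin secreted by glandular epithelium, stood at 22.4 CPM at 4 h (20.3 to 24.6) and 47.1 CPM at 8 h (44.6 to 49.6). Its ratio of 2.10 (1.88 to 2.35) was the highest of all genes compared on the log2 scale, at 1.04. It was 51.1 CPM at 2 h, so the 4 h pool was the low one of the 3. The top 1% of cells gave 20.4% of SCGB2A1 UMIs at 4 h and 31.2% at 8 h. EGR1, an immediate-early zinc finger factor, went from 21.9 to 38.4 CPM, a ratio of 1.75 (1.56 to 1.96), after 11.8 CPM at 2 h. The top 1% of cells gave 15.0% of EGR1 UMIs at 4 h and 24.7% at 8 h. NAB2, a corepressor that binds EGR proteins and is itself induced by them, went from 17.4 to 29.6 CPM, a ratio of 1.70 (1.49 to 1.94), and was at 19.5 CPM at 2 h. EGR1 therefore increased over each interval, while NAB2 was higher at 8 h than at both earlier times.

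DHRS2, a mitochondrial short-chain dehydrogenase, went from 44.6 to 76.5 CPM (ratio 1.71, 1.58 to 1.86), but few cells held it. A share of 7.8% of 4 h cells and 8.0% of 8 h cells had a DHRS2 UMI, and the top 1% of cells gave 63.4% and 64.0% of its UMIs. FBLN1, an extracellular matrix protein, went from 51.8 to 84.1 CPM (1.62, 1.51 to 1.75), and ESPN, an actin-bundling protein, from 72.9 to 111.9 CPM (1.53, 1.44 to 1.64). These 2 were the broadest of the leading genes. ESPN had a UMI in 51.5% (48.04 to 55.02) of 4 h cells and 65.8% (63.2 to 68.4) of 8 h cells after each cell was thinned to 12169 UMIs, and in 63.9% and 74.7% without thinning. FBLN1 had one in 38.5% and 47.8% of thinned cells and in 51.6% and 59.4% of unthinned cells. Thinning left out 77 shallower cells at 4 h and 159 at 8 h.

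Of the remaining leading genes, DUSP6, the phosphatase that switches off ERK, went from 15.5 to 24.7 CPM (1.60, 1.39 to 1.84) after 11.4 CPM at 2 h. ANO1, a calcium-activated chloride channel, went from 7.47 to 12.9 CPM (1.72, 1.41 to 2.10). METTL7B, a methyltransferase, went from 8.71 to 14.8 CPM (1.70, 1.42 to 2.05). Lower in level than the genes above, these last 2 rested on 139 and 162 UMIs at 4 h. SLIT3, a secreted guidance ligand for ROBO receptors, went from 8.66 to 14.5 CPM (1.67, 1.39 to 2.02). PLXDC2, a plexin-domain membrane protein, went from 14.3 to 22.3 CPM (1.56, 1.35 to 1.81). CA2, a carbonic anhydrase that interconverts carbon dioxide and bicarbonate, went from 17.9 to 27.4 CPM (1.53, 1.35 to 1.75). The 12 leading higher genes were chosen by these ratios, so their intervals describe the counting error and test nothing.

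**Figure D2:**
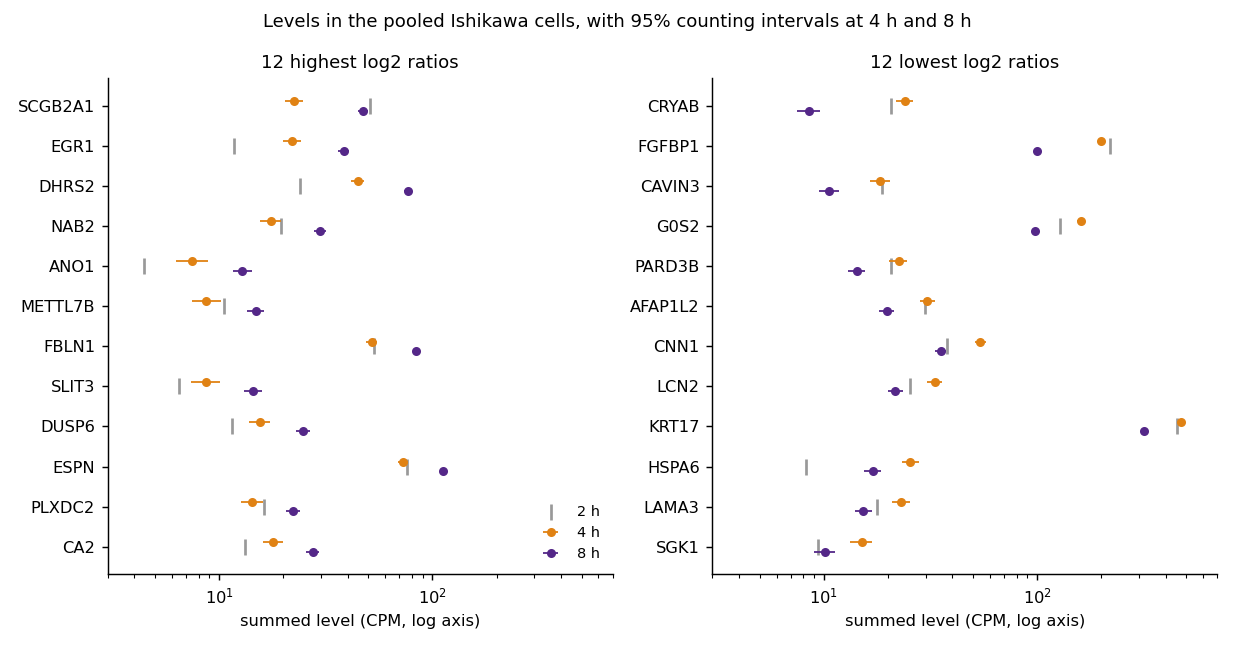
Summed levels in CPM (log axis) of the 12 genes with the highest (left) and the 12 with the lowest (right) log2 ratios. Grey bars are 2 h, orange points 4 h and violet points 8 h, with 95% Poisson counting intervals at 4 h and 8 h. The 24 genes were chosen by these ratios, so the intervals describe the counting error and test nothing.

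The 12 lowest genes had log2 ratios from −1.39 to −0.53. CRYAB, a small heat shock protein that holds unfolded proteins in solution, dropped from 23.9 CPM at 4 h (21.7 to 26.2) to 8.48 CPM at 8 h (7.46 to 9.59). It was 2.82-fold higher at 4 h (2.41 to 3.30). Its UMIs were concentrated at both times, with 45.9% of them at 4 h and 40.9% at 8 h in the top 1% of cells. The maximum in a cell was 57 UMIs at 4 h and 12 UMIs at 8 h. Among thinned cells 8.8% at 4 h and 6.0% at 8 h had a CRYAB UMI. FGFBP1, a secreted carrier that frees fibroblast growth factors from the matrix, dropped from 198 to 100.1 CPM, so it was 1.98-fold higher at 4 h (1.89 to 2.08), and stood at 218 CPM at 2 h. In contrast to CRYAB it was widespread, with a UMI in 65.3% (61.9 to 68.5) of thinned 4 h cells and 45.3% (42.53 to 47.999) of thinned 8 h cells, or 71.5% and 54.3% unthinned. The library holds cells of 1 line, with no other cell type to read free RNA from, so no such share could be set beside these genes.

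G0S2, an inhibitor of the triglyceride lipase ATGL, fell from 160 to 98.1 CPM (1.63-fold higher at 4 h, 1.55 to 1.71) after 128 CPM at 2 h. KRT17, a stress-inducible epithelial keratin, fell from 472 to 315 CPM (1.496-fold, 1.45 to 1.54). Its UMIs were found in 54.8% of thinned 4 h cells and 44.6% of thinned 8 h cells. CAVIN3, a coat protein of caveolae, fell from 18.4 to 10.6 CPM (1.74-fold, 1.49 to 2.04). CNN1, calponin, an actin-binding protein of contractile cells, fell from 54.2 to 35.3 CPM (1.53-fold, 1.40 to 1.67). LAMA3, a chain of the basement membrane protein laminin-332, fell from 23.0 to 15.3 CPM (1.503-fold, 1.31 to 1.72). The polarity protein gene PARD3B and AFAP1L2, which encodes an adaptor of SRC family kinases, fell from 22.4 to 14.2 CPM and from 30.5 to 19.7 CPM.

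LCN2, an iron-binding secreted lipocalin, fell from 33.1 to 21.6 CPM (1.53-fold, 1.37 to 1.71). SGK1, a kinase that regulates ion transport, fell from 15.0 to 10.1 CPM (1.49-fold, 1.26 to 1.76) and was at 9.37 CPM at 2 h. HSPA6, a strictly inducible member of the HSP70 family, fell from 25.4 to 16.9 CPM (1.503-fold, 1.32 to 1.71) after 8.20 CPM at 2 h. HSPA6 was the most uneven gene among these, with 75.9% and 82.1% of its UMIs in the top 1% of cells and a UMI in 5.5% and 4.4% of cells. Its log2 ratio of −0.56 became −0.11 with every called cell and −0.14 in cells under 1% GFP, both short of the 1.3-fold limit. SGK1 and HSPA6 thus had their highest level of the 3 times at 4 h and were still above their 2 h level at 8 h. A highest level at 4 h was not particular to them. LCN2 had it too, but ended under its 2 h level of 25.4 CPM.

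Levels at 2 h place the step within the time course, with the reminder that the intervals from 2 h to 4 h and from 4 h to 8 h share the 4 h pool. Of the 56 higher genes, 51 were above their 2 h level at 8 h, and in 25 the 4 h level lay between the other 2. Of the 46 lower genes, 42 were under their 2 h level at 8 h, and 16 had an intermediate 4 h level. The called genes were chosen by their 4 h and 8 h levels, so these counts describe the calls and test nothing. The same counts were not made over all genes compared. Higher genes whose lowest level was at 4 h included MFSD2A, a lysolipid transporter, at 66.9, 37.7 and 52.0 CPM over the 3 times. The steady risers included KCNK15, a potassium channel, at 8.44, 13.3 and 19.4 CPM, and THBS1, a matrix glycoprotein, at 47.1, 69.4 and 92.5 CPM.

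By level, the lower genes included more abundant transcripts. S100A10, the annexin A2 partner protein, fell from 2330 to 1786 CPM (1.305-fold, 1.29 to 1.32), and it had a UMI in 99.8% of 4 h cells and in every 8 h cell. IGFBP3, a secreted binding protein of insulin-like growth factors, fell from 335 to 255 CPM. The protease inhibitor cystatin M, CST6, fell from 213 to 154 CPM, and C19orf33 from 217 to 158 CPM. Among higher genes the most abundant was ID3, an inhibitor of bHLH factors, which went from 139.6 to 203 CPM (1.45, 1.39 to 1.52). The highest mean of a higher gene was thus 171 CPM, against 2058 CPM for a lower gene.

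Gene lists were read against the median of all genes (0.02). In 41 lists, 819 of the genes compared were listed, 21 lists had a called member, and 35 of the 102 called genes belonged to a list. The other 20 lists had medians between −0.21 (metallothionein list) and 0.11 (ribosome biogenesis genes). Immediate-early genes, which are transcribed within minutes of a growth signal without new protein synthesis, had 16 members compared, of which 4 were higher and 0 lower, with a median of 0.22. The 4 were EGR1, IER2 (85.0 to 119 CPM), KLF10 (48.9 to 64.6 CPM) and the AP-1 subunit JUNB (30.5 to 40.3 CPM). The lowest member was PPP1R15A at −0.09. The median was 0.06 both in cells under 1% of UMIs from the GFP reporter and in cells with no UMI of the division genes TOP2A or MKI67. Feedback genes of the mitogen-activated protein kinase (MAPK) pathway, which ERK signalling induces and which damp it, had 9 members, all above 0, 3 higher and a median of 0.23. Those were DUSP6, DUSP5 (8.12 to 12.2 CPM) and the ETS factor ETV5 (9.89 to 13.4 CPM). The lowest of the list was another phosphatase gene, DUSP1, at 10.3 and 10.97 CPM. Of 6 EGF ligands and ERBB receptors, the ligand AREG was higher, at 12.8 and 18.1 CPM, while TGFA had 37.6 and 44.6 CPM and ERBB2, a receptor, 17.6 and 15.4 CPM.

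Readouts of transforming growth factor β and bone morphogenetic protein signalling had 2 higher members of 13 and a median of 0.13. These were ID3 and ID2 (13.2 to 18.6 CPM), followed by ID4 at 0.37 and ID1 at 0.26, both under the limit. Wnt and Notch targets had 4 members compared, with SOX9, a transcription factor of progenitor epithelium, higher at 23.8 and 32.7 CPM and a median of 0.32. Of 11 replication-dependent histone genes, all were above 0, 2 were higher (HIST3H2A, 10.4 to 14.9 CPM, and HIST1H3B, 20.7 to 28.6 CPM) and the median was 0.30. These histone transcripts mostly lack poly(A) tails, share sequence with one another and are counted here by an oligo-dT assay, so their values are uncertain. Their median was 0.01 in cells with no TOP2A or MKI67 UMI. S phase genes (58 compared) and G2 and mitosis genes (58) had no called member and medians of 0.00 and −0.02. TOP2A, the mitotic topoisomerase, had 129.98 and 120.35 CPM. Cells with a TOP2A or MKI67 UMI made up 72.3% (69.2 to 75.2) of 4 h and 66.8% (64.3 to 69.2) of 8 h cells.

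**Figure D3:**
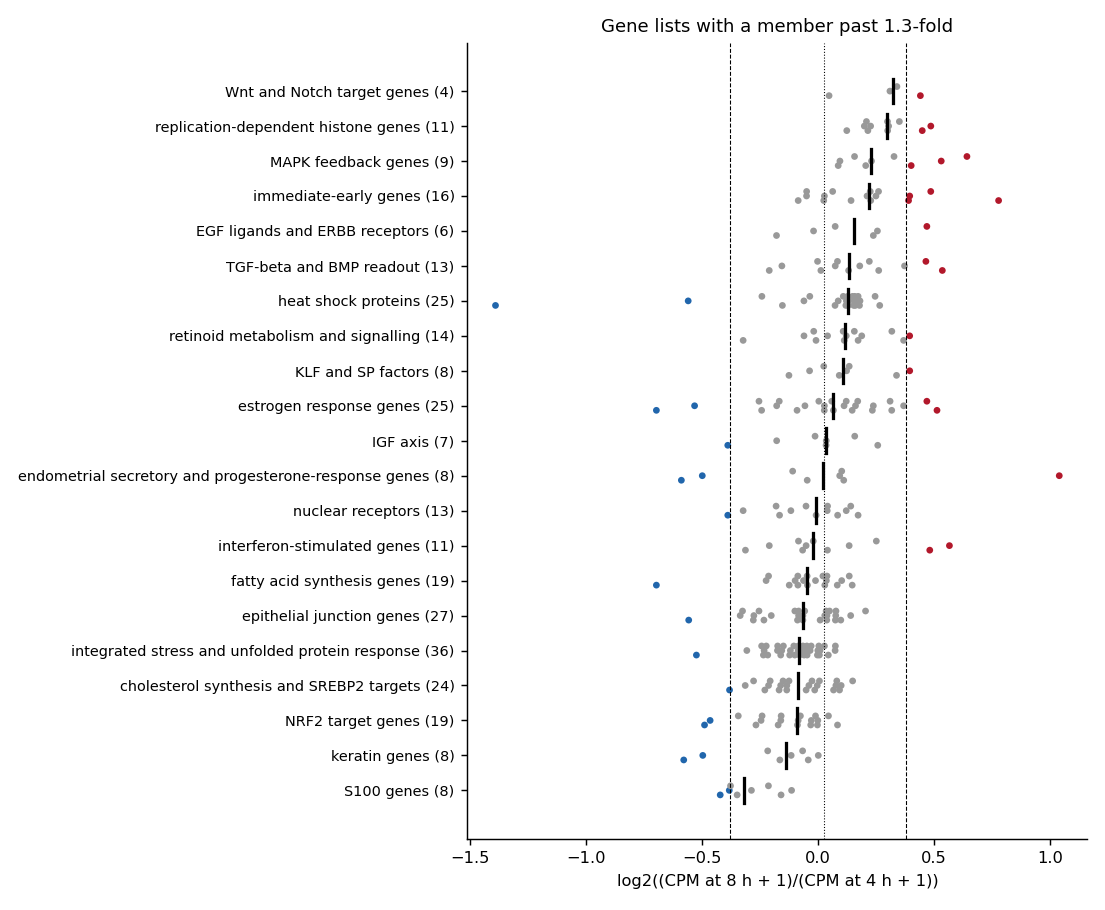
Log2 ratios of 8 h to 4 h for the members of the 21 lists with a called member, with the number of members compared in brackets. Red and blue points are past 1.3-fold (dashed lines), black bars are list medians and the dotted line is the median of all genes, 0.02. S100 genes have the lowest list median, −0.32, and Wnt and Notch targets the highest, 0.32.

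Other lists had medians under 0. The S100 family of small calcium-binding proteins had 8 members compared, all under 0, with a median of −0.32 and a range from −0.42 to −0.11. S100A2 (67.2 to 49.9 CPM) and S100A10 were called lower. Summed over the list, the level was 5554 CPM at 4 h and 4447 CPM at 8 h. Keratins had 2 lower members of 8, KRT17 and KRT5 (21.5 to 14.9 CPM), and a median of −0.14, while KRT18, the main simple epithelial keratin, stood at 1730 and 1731 CPM. The metallothionein list had 4 members compared, none called, and a median of −0.21. The metallothioneins MT2A, MT1X and MT1F had log2 ratios of −0.15, −0.26 and −0.32, and SLC30A1, a zinc transporter, 0.12. Targets of the oxidative stress factor NRF2 had 2 lower members of 19, AKR1C2 (15.8 to 10.97 CPM) and OSGIN1 (23.3 to 16.6 CPM), and a median of −0.09. AKR1C2 shares sequence with other AKR1C genes, so its count is uncertain. Of 36 genes of the integrated stress and unfolded protein response, NUPR1, a stress-induced chromatin protein, was lower at 77.8 and 53.8 CPM, with a list median of −0.08.

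Of 25 heat shock proteins 0 were called higher, and CRYAB and HSPA6 were lower. Of these 25, 19 were above 0, the median was 0.13, and HSPH1 was the highest at 35.0 and 42.3 CPM. Interferon-stimulated genes were also divided, with 2 higher of 11, ISG15 (29.8 to 44.7 CPM) and LY6E (35.5 to 50.03 CPM), and a median of −0.02. ISG15 was in 18.8% of thinned cells at both times, and the top 1% of cells gave 41.3% and 55.2% of its UMIs. Endometrial secretory and progesterone-response genes had 1 higher member (SCGB2A1) and 2 lower members of 8, LCN2 and the mucin MUC16 (14.7 to 10.1 CPM). Ribosome biogenesis genes had no called member among 50, but 48 were above 0 and their median was 0.11. By contrast, 12 of 47 cytosolic ribosomal protein genes were above 0, with a median of −0.02 and a range from −0.07 to 0.03.

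Genes with a known estrogen response were divided at this step. Of 50 on the list 25 were compared, with 2 higher (KCNK15 and AREG), 2 lower (G0S2 and SGK1) and a median of 0.07, which was −0.06 over the members of at least 50 CPM. The imprinted gene PEG10 had 698 and 866 CPM, a ratio of 1.24 (1.21 to 1.27) that was under the limit. DHRS3, a retinal reductase, had 15.4 and 20.2 CPM with a log2 ratio of 0.37, just under the limit. Retinoid genes as a list had 1 higher member of 14, the retinol dehydrogenase RDH10 (14.6 to 19.5 CPM), with RXRA, the retinoid X receptor, lowest at 13.8 and 10.8 CPM. Several classical targets were too low to compare. PGR, the progesterone receptor, had 52 of 18595798 UMIs at 4 h and 146 of 29721164 at 8 h, for which the counting interval of the ratio of shares was 1.27 to 2.46. GREB1, an ER coactivator, had 59 and 121 UMIs (0.93 to 1.78) and IER3 143 and 267 (0.95 to 1.44), and both of these intervals include 1. TFF1 had 0 UMIs at both times, which allows up to 0.161 CPM at 4 h and 0.101 CPM at 8 h from 3 counts.

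The Ishikawa matrix also counts a GFP reporter, which was left out of the genes and totals above and took 3.95% of UMIs at 4 h and 4.10% at 8 h. At both times most cells had little of it, with 60.7% (57.4 to 63.9) and 61.5% (59.0 to 64.0) of cells under 1% GFP. The called genes were chosen from these same cells, so their counts in each subset describe the calls and test nothing. Counts of all genes called in each GFP subset are given with the dependence on processing. Within the cells under 1% GFP, 56 of the 56 higher genes kept their direction and 41 were past 1.3-fold. Within the cells with at least 1% GFP those numbers were 56 and 44. Of the 46 lower genes, 46 and 44 kept their direction and 39 and 29 were past the limit, KRT5 and TJP3 being the exceptions in direction in the cells with at least 1% GFP. FGFBP1 was the same in both subsets, with log2 ratios of −1.002 and −0.95, and so was G0S2, with −0.71 and −0.69. Others were not. CRYAB had −0.34 in cells under 1% GFP and −2.38 in the others, EGR1 0.32 and 1.41, DHRS2 1.14 and 0.07, and CNN1 −0.44 and −0.96. The part of GFP in these differences was not tested.

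The cells were also split by TOP2A and MKI67 UMIs. The called genes were again chosen from these same cells, so the counts describe the calls and test nothing. Cells with a TOP2A or MKI67 UMI were 72.3% of the 4 h and 66.8% of the 8 h cells used. In them, 56 of 56 higher and 46 of 46 lower genes kept their direction, and 48 and 39 were past 1.3-fold. In cells with none, 54 and 44 kept it and 34 and 26 were past 1.3-fold, the exceptions in direction being HIST3H2A and HIST1H3B among the higher genes and KRT5 and TJP3 among the lower. KRT17 fell by 1.04 on the log2 scale in cells without these UMIs and by 0.41 in cells with them. LCN2 fell by 1.08 and 0.40, and HSPA6 by 1.502 and 0.09. Further leading genes fell short of 1.3-fold in the cells without these UMIs, DHRS2 at 0.07, PLXDC2 at 0.29, LAMA3 at −0.17 and CNN1 at −0.33. CA2 had 1.04 and 0.44, and ANO1 1.10 and 0.58. NAB2 was closer, at 0.85 and 0.70, and so was EGR1, at 0.73 and 0.80. The part of the cell cycle in these values was not tested.

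**Figure D4:**
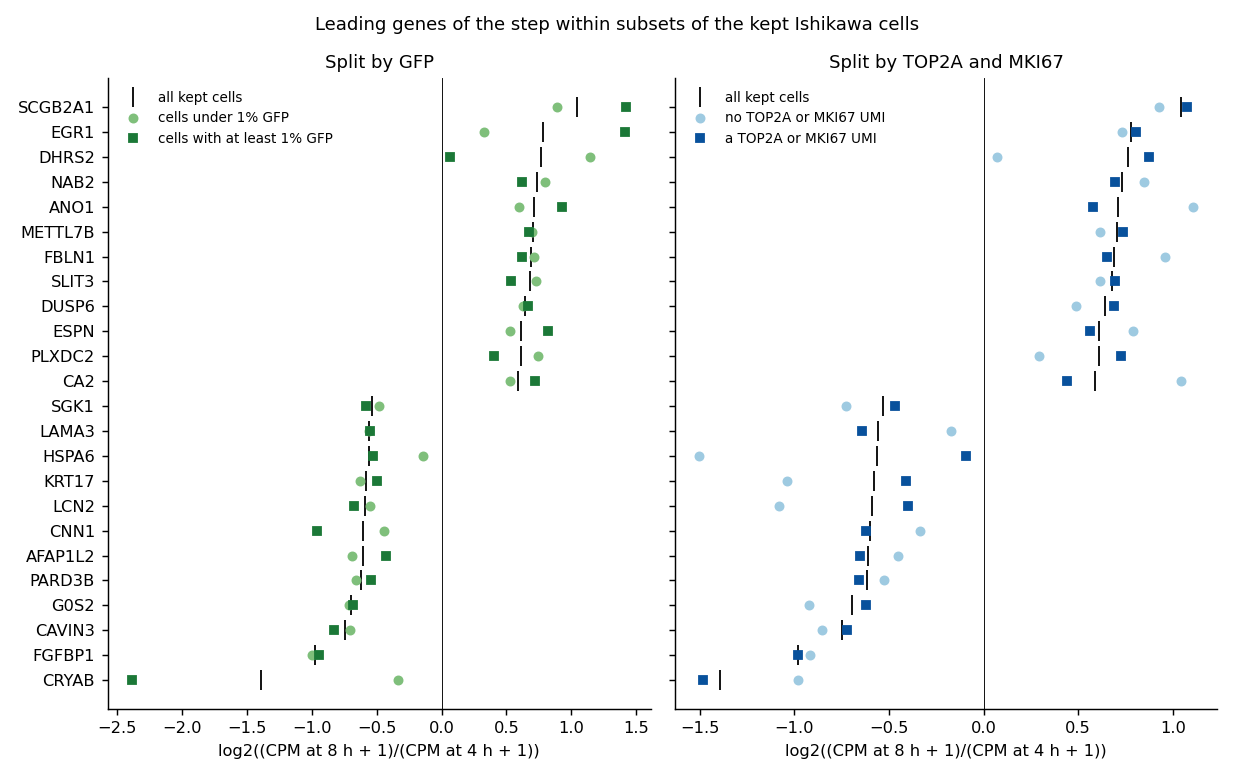
Log2 ratios of 8 h to 4 h for the 12 highest and 12 lowest genes in all kept cells (black bars) and in subsets split by the GFP share (left) or by TOP2A and MKI67 UMIs (right). All 24 genes keep their direction in every subset, which tests nothing because they were chosen from the same cells. CRYAB (−0.34 and −2.38) and EGR1 (0.32 and 1.41) differ most between the GFP subsets.

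Promoter sequences were available in RefSeq windows of 300 bases (250 before to 50 after the start, GRCh38.p14) for 37 of the 56 higher and 31 of the 46 lower genes, and for 6438 of the genes compared. The 250 bases before the start are shown for 5 genes as examples of the motif search. EGR1, NAB2 and DUSP6 are growth-signal genes that rose, and FGFBP1 and G0S2 are the abundant genes that fell most. These examples were chosen after the values were seen, and likeness between promoters was not measured. Capitals mark the letters of the motifs named after them.

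EGR1, chr5:138465229-138465478, plus strand: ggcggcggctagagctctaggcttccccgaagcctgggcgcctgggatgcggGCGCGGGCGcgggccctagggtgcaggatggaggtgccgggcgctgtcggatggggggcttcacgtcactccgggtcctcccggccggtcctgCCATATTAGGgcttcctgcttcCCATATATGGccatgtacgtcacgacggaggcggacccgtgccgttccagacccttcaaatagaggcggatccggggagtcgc
NAB2, chr12:57088864-57089113, plus strand: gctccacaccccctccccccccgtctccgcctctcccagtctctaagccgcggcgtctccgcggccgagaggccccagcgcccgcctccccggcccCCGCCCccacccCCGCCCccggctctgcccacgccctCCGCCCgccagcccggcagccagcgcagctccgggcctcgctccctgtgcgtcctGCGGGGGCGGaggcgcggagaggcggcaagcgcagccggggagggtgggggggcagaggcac
DUSP6, chr12:89352502-89352751, minus strand: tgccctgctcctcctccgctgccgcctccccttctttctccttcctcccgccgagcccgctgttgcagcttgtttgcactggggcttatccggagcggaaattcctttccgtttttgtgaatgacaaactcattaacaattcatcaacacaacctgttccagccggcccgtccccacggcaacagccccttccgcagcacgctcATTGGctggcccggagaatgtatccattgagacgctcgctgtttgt
FGFBP1, chr4:15938741-15938990, minus strand: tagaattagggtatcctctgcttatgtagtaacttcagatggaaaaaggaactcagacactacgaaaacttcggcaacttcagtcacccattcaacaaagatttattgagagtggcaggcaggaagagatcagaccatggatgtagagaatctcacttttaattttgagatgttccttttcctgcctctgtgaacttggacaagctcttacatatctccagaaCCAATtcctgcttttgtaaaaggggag
G0S2, chr1:209675162-209675411, plus strand: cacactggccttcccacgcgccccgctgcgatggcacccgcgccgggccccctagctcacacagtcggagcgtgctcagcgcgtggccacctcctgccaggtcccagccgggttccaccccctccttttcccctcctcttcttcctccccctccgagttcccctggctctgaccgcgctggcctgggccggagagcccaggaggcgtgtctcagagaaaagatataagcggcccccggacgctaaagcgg

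In EGR1 the capitals mark a pair of serum response elements, which bind SRF, at 105 to 96 and 83 to 74 bases before the start, and an EGR site (GCGNGGGCG) at 198 to 190. NAB2 holds an EGR site at 62 to 54, which overlaps 1 of its 4 GC boxes (GGGCGG). DUSP6 and FGFBP1 hold a CCAAT box (CCAAT), and G0S2 holds none of the 13 motifs searched in the bases shown. Both strands were searched.

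Across the whole windows the EGR site was found in 13 of 37 higher genes, 35.1% (20.2 to 52.5, exact binomial), against 1030 of 6438 promoters of all genes compared and 9.28% of all 27305 promoters. Among lower genes it was in 2 of 31, 6.45%. The higher genes with the site included EGR1, NAB2, PDGFA, ID2, GADD45B, ANO1 and THBS1. This motif was chosen after the values were seen, it overlaps the GC box, and the windows of the higher genes had a median GC content of 69.0% against 65.7% for all genes compared. The AP-1 site (TGANTCA) was found in 5 of 31 lower genes, 16.1% (5.45 to 33.7), namely HSPA6, LAMA3, LCN2, OSGIN1 and S100A2. It was in 3.93% of all genes compared and 1 of 37 higher genes. The pattern allows any middle base, and the LCN2 site reads TGAATCA. The windows of the lower genes had a median GC content of 62.3%, under that of all genes compared, and its part in this share was not tested. Serum response elements were in 3 of 37 higher genes (EGR1, ISG15 and PDGFA), 8.11%, and in 1.07% of all genes compared. The TATA box (TATAAA) was in 13.5% of higher, 6.45% of lower and 4.80% of all genes compared, and the heat shock element (GAANNTTC) in 5.41%, 12.9% and 4.27%. The heat shock element was also chosen after the values were seen, and it was in 0 of the 6 windows of genes lower by 1.5-fold. The full estrogen response element (GGTCANNNTGACC) was in 0 of the 37 and 0 of the 31 windows, and in 0.0155% of those of all genes compared.

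T-47D took the same step with its own cultures and its own limits on cells, from 1341 cells at 4 h to 553 at 8 h. Of 7432 genes compared there, 92 were higher (1.24%) and 32 lower (0.431%), a split that became 70 and 45 with TMM scaling. Among 6421 genes compared in both lines, the log2 ratios of the lines had r = 0.11 and rho = 0.10 across genes, which are not independent replicates. Of the called Ishikawa genes, 18 higher and 19 lower genes were among these, of T-47D 50 and 15. Of all 6421 genes, 0.779% were higher and 0.234% lower in T-47D. The count of genes higher in both lines was 0, from which nothing is read with so few genes called, and 1 gene, NUPR1, was lower in both, at 77.8 and 53.8 CPM in Ishikawa and 1601 and 1212 CPM in T-47D. That is 5.26% of the 19 lower Ishikawa genes and 6.67% of the 15 lower T-47D genes compared in both lines. OSGIN1, an NRF2 target, fell by 0.47 on the log2 scale in Ishikawa and was at 0.61 in T-47D (17.9 to 27.8 CPM). GNG11, a G protein subunit, fell by 0.41 in Ishikawa and was at 0.46 in T-47D (231 to 317 CPM). In T-47D the median of the Ishikawa higher genes was 0.00 and that of the lower genes −0.07, against 0.01 for all genes of both lines.

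Many leading Ishikawa genes could not be compared in T-47D because they were hardly present there. SCGB2A1 had 9 and 3 UMIs in the T-47D pools, EGR1 2 and 3, and G0S2 1 UMI at 4 h. PGR showed the reverse, with 8331 UMIs at 4 h in T-47D against 52 in Ishikawa. The lists were counted in each line over its own genes past the minimum. Estrogen response genes had 8 higher members of 34 in T-47D and a median of 0.20, against 2 of 25 and 0.07 in Ishikawa. S phase genes had 10 higher of 46 and a median of 0.28, against 0 of 58 and 0.00. Cells with a TOP2A or MKI67 UMI made up 37.0% of 4 h and 41.6% of 8 h cells in T-47D. Immediate-early genes had 0 called of 12 and a median of 0.07, against 4 of 16 and 0.22. The S100 genes had a median of −0.08 in T-47D with 1 higher member of 9. Of the metallothionein list, 3 members were compared in T-47D and 3 were lower, with a median of −0.72. In Ishikawa none of 4 was called and the median was −0.21. With 1 culture per time point in each line, no test of these differences was possible.

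**Figure D5:**
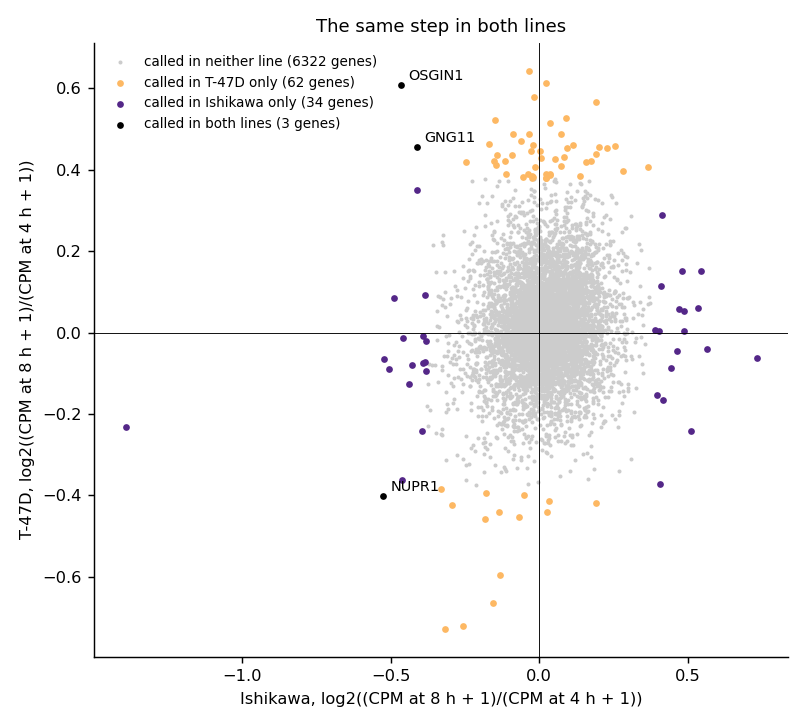
Log2 ratios of 8 h to 4 h in Ishikawa (horizontal) and T-47D (vertical) for the 6421 genes compared in both lines. Colours mark genes past 1.3-fold in neither line, in 1 line or in both, and the 3 named black points are the genes past it in both, NUPR1 in the same direction and OSGIN1 and GNG11 in opposite directions.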

How the data were processed

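Single-cell expression was measured in 2 lines and 4 time points, with 1 gene expression and 1 MULTI-seq library per line. The deposited matrices hold UMI counts per gene and cell barcode, which the authors made with Cell Ranger 3.1.0 on hg38 per the submitters' processing notes. A deposited table gives each barcode's time point, or a doublet call from the tags; barcodes called as doublets or not called were left out. Pairs of cells from 1 culture carry 1 tag and were not removed by the tags. No further doublet caller was run, and an upper limit of 1.5 times the median UMIs was an alternative. Of the called cells, 892 of 1701 at 4 h and 1465 of 2693 at 8 h passed the study's limits.

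UMIs were summed per time point without GFP and tdTomato and scaled to CPM. Genes were compared at a mean of 10 CPM with a pseudocount of 1 and called at 1.3-fold. The study's Wilcoxon test over cells was not used, since cells are not replicates. Intervals of 95% are exact Poisson (levels), exact conditional binomial (plain ratios) and Clopper-Pearson (shares). Python 3.11.15 with scipy 1.17.1 was used, and edgeR 4.0.16 for TMM factors. The calculation was tested on simulated pools.

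The members, lists and rules were chosen with earlier results of these data known. Named genes were the 12 highest and 12 lowest log2 ratios, 12 fixed genes (ESR1, GREB1, PGR, TFF1, TGFA, PEG10, DHRS3, G0S2, EGR1, IER3, TOP2A and 1 that is not reported here), the ends of each list with a called member, the 6 called genes with most UMIs, and genes called in both lines. Other called genes in the text (list members, subset exceptions, promoter examples and examples of the time course) were chosen after their values were seen. Promoters are the RefSeq windows of the first entry for each symbol, with heat shock element and EGR site added after the values were seen. The cells under 1% GFP and without TOP2A or MKI67 UMIs were planned subsets, and their counterparts were added later. The gene lists without a called member covered cell division, metabolism, translation and other pathways, among the 41 in all.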

Additional observations from a re-analysis of the deposited data

Results flagged for a closer look

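A pair of genes was called in opposite directions in the 2 lines, and this difference was not tested. The log2 ratio of 8 h to 4 h of OSGIN1 was −0.47 in Ishikawa against 0.61 for T-47D, from 434 and 494 UMIs in Ishikawa and 530 and 359 UMIs in T-47D. For GNG11 the Ishikawa value was −0.41 and the T-47D value 0.46, from 1124 and 1343 UMIs in Ishikawa and 6854 and 4102 UMIs in T-47D. The counting intervals of the plain ratios were 0.62 to 0.81 against 1.35 to 1.78 for OSGIN1 and 0.69 to 0.81 against 1.32 to 1.43 for GNG11.

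Reporter transcripts outside the comparison gave a signal in the Ishikawa matrix. GFP took 3.95% of UMIs at 4 h and 4.10% at 8 h, and up to 73.3% and 68.2% of the UMIs of a single cell. The tdTomato feature had 1098 UMIs at 4 h and 1378 UMIs at 8 h. The T-47D feature list holds neither reporter.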

How the results depend on the processing

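Counts of called genes depended mainly on the minimum level, the pseudocount and the number of cells. The 56 higher and 46 lower Ishikawa genes at 1.3-fold, and the 12 and 8 at 1.5-fold, became 292, 222, 59 and 34 with a minimum of 1 CPM and 11, 17, 3 and 2 with a minimum of 50 CPM. A pseudocount of 5 CPM gave 32 higher genes at 1.3-fold and 5 and 4 at 1.5-fold. Subsets with fewer cells gave more calls. Cells under 1% GFP gave 90 and 76 at 1.3-fold, cells with at least 1% GFP 231, 139, 32 and 22, and cells with no TOP2A or MKI67 UMI 284, 177, 46 and 29. Thinned cells gave 117 higher genes, and the mean over cells 13 lower genes at 1.5-fold. In T-47D the 92 higher and 32 lower genes became 424 and 260 with a minimum of 1 CPM, 14 and 10 with 50 CPM and 44 and 19 with a pseudocount of 5 CPM. In T-47D, cells with no TOP2A or MKI67 UMI gave 75 lower genes and thinned cells 61, and TMM and median-of-ratios factors split the calls 70 to 45 and 72 to 44. The cause of these moves was not tested beyond the change in genes or cells used. The other 51 values of these counts lay within 1.5 times the main count.

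HIST3H2A turned to −0.0502 in cells with no TOP2A or MKI67 UMI, the median of KLF and SP factors to −0.00745 in the same cells, and the keratin median to 0.0133 in cells with at least 1% GFP; the cause was not tested. Among named genes, 767 values stayed within the counting interval of the ratio and 104 left it with the same sign. The other 13 left it with the other sign, in 7 genes, of which HIST3H2A was called and CEBPG, DUSP1, GDF15, HES4, HIST1H2BC and KRT18 were not. Among list medians, 581 moved by under 0.1, and 9 of those that moved more had the other sign, in 7 lists. These were keratins, KLF and SP factors, IGF axis, YAP targets, estrogen response, fatty acid synthesis and imprinted genes. With the genes past 1.5-fold, 11 of 26 motif shares left their counting interval, none of them of the EGR or serum response motif and, for AP-1, the higher genes alone. These sets hold only 9 higher and 6 lower windows, which are part of the same called genes. The intervals are wide, so a share that stayed within its interval tests nothing. Scaling by TMM moved the median of all Ishikawa genes from 0.02 to 0.01. No paired analysis was possible because each time point was 1 culture. For the same reason no replicate could be left out, and depth limits genes under 10 CPM, such as PGR and GREB1.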
